A study of Equus caballus with 2 samples.

Results

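The small leucine-rich proteoglycans are secreted matrix proteins whose curved core, built of leucine-rich repeats, binds collagen. *DCN* (decorin), *LUM* (lumican), *BGN* (biglycan), *FMOD* (fibromodulin), *PRELP*, *OGN* (osteoglycin or mimecan), *ASPN* (asporin) and *PODN* (podocan) were described here in cultured endometrial fibroblasts of the horse, with and without TGF-β1. The 8 genes were chosen by symbol, out of 21426 genes listed, and each symbol stood on 1 row of the count tables. All 8 had a mean over both libraries of at least 1 CPM, the UMIs of a gene scaled to a library of 1000000 UMIs.

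Fibroblasts were isolated from mares with healthy or mildly fibrotic endometria, grown on collagen-coated hydrogels, and moved from serum to medium with BSA for the treatment phase. Cells of the same 4 mares were pooled for each treatment. The control pool received no supplementation, and the TGF-β1 pool received 10 ng/ml human recombinant TGF-β1 for 24 h. MFGE8-treated cells were not analysed here.

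Every pool gave 1 droplet library, where UMIs (unique molecular identifiers) count captured transcripts. The limits were 20000 UMIs and 3500 genes as the minimum and 4% mitochondrial UMIs as the maximum, which left 3865 control and 4513 TGF-β1 cells with a median of 50313 and 43142 UMIs. With 1 library per condition there is no replicate, no test was made, and each difference describes these libraries, in which culture, library preparation and treatment cannot be told apart. Cells were not assigned to mares here, so the share of each mare in the libraries was not measured. Levels are CPM of UMIs summed over kept cells. The log2 ratio is TGF-β1 over control, and its 95% interval, exact binomial (Clopper-Pearson), covers counting error only. Fewer transcripts per cell and fewer expressing cells cannot be told apart in the summed levels, so values per cell follow them. For sparse genes those values do not separate them either, since the share of cells with a UMI follows largely from the mean. UMIs were read from transcript ends and were not divided by gene length.

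Decorin, biglycan and asporin form class I of the family. Decorin and biglycan carry chondroitin or dermatan sulfate chains, asporin carries none, and each of the 3 core proteins is known to bind TGF-β. Lumican, fibromodulin and PRELP belong to class II, in which lumican and fibromodulin can carry keratan sulfate and steer the width of collagen fibrils, while PRELP has a heparin-binding end and links basement membranes to the matrix below. Osteoglycin is of class III and podocan of a non-canonical class. In connective tissue and uterine stroma, decorin and lumican are among the typical products of fibroblasts.

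The family as a whole hardly differed between the libraries, while its makeup did. The 8 genes held 714604 control and 774035 TGF-β1 UMIs, 0.339% and 0.352% of all UMIs. The summed level was 3395 CPM and 3523 CPM, a log2 ratio of 0.053 (0.049 to 0.058). *DCN* made up 61.8% of these UMIs in control and 51.0% in TGF-β1 cells, *BGN* 19.3% and 28.5%, *LUM* 16.2% and 16.0%, and *ASPN* 0.968% and 3.46%. *PRELP* made up 0.937% and 0.199%.

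Taken gene by gene, 5 of the 8 were higher and 3 lower in the TGF-β1 library, and their median log2 ratio was 0.11, beside -0.01 over the 12116 genes whose mean reached 1 CPM. *ASPN* was more than 2-fold higher, as were 3.45% of those genes, and *PRELP* more than 2-fold lower, as were 3.46%, so 2 of 8 genes passed 2-fold beside 6.91% of all genes. At a limit of 1.5-fold, *ASPN*, *BGN* and *PODN* were higher, beside 7.64% of all genes, and *PRELP* and *FMOD* lower, beside 9.36%. Together these were 5 of 8 genes beside 17% of all genes.

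**Figure D1:**
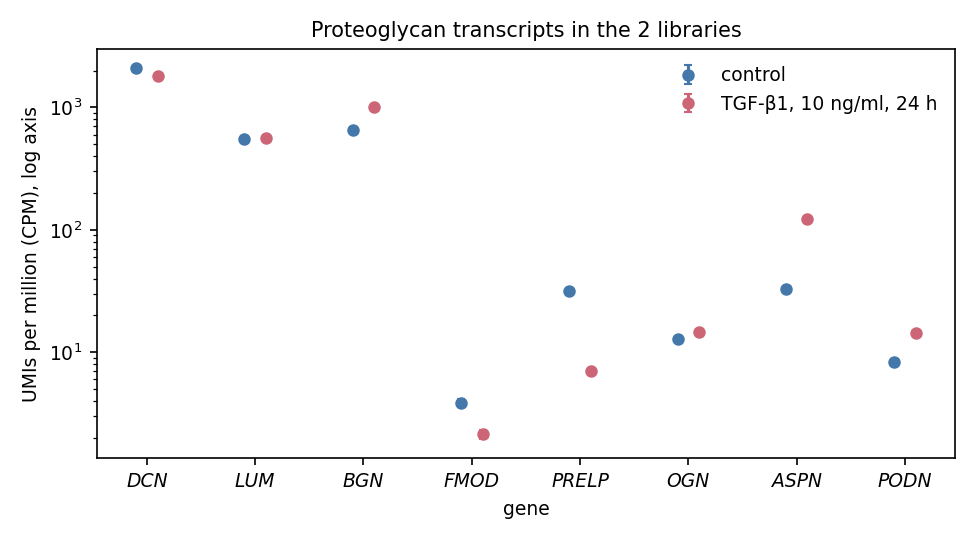
Level of each gene in CPM (log axis) in the control (blue) and TGF-β1 (red) library, with 1 point per library and 95% counting intervals mostly smaller than the points. *ASPN* lay at 32.9 and 122 CPM and *PRELP* at 31.8 and 7.01 CPM, so that genes alike in the control library stood far apart after TGF-β1.

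Among the class I genes, *ASPN* (ENSECAG00000007047), a collagen-binding protein that can hold back TGF-β1 signaling, had 6915 control and 26786 TGF-β1 UMIs. Its level was 32.9 CPM (32.1 to 33.6) and 122 CPM (120 to 123), so the TGF-β1 library was higher and the counting intervals did not overlap. The log2 ratio was 1.89 (1.85 to 1.93), a 3.71-fold difference, and 100 of the 12116 genes had a larger one.

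*BGN* (ENSECAG00000018717), which binds collagen and TGF-β and in soluble form is known as a ligand of Toll-like receptors, had 656 CPM (652 to 659) in control cells. It reached 1004 CPM (1000 to 1008) with TGF-β1. The TGF-β1 library was again higher with intervals apart, at a log2 ratio of 0.61 (0.60 to 0.62), a 1.53-fold difference.

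*DCN* (ENSECAG00000020413), which regulates the width of collagen fibrils and can sequester TGF-β, was the class I gene that went the other way. It had 2098 CPM (2092 to 2104) in control and 1795 CPM (1789 to 1801) in TGF-β1 cells, a log2 ratio of -0.23 (-0.23 to -0.22). The TGF-β1 library was lower, by a factor of 1.17. Of the 12116 genes, 26.7% had a lower ratio, so this difference is of a common size among them.

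In class II, *PRELP* (ENSECAG00000018126) had 6697 control and 1541 TGF-β1 UMIs. The level was 31.8 CPM (31.1 to 32.6) and 7.01 CPM (6.67 to 7.37), lower in the TGF-β1 library with intervals far apart. The log2 ratio was -2.18 (-2.26 to -2.10), a factor of 4.54, and 56 of the 12116 genes had a lower one.

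*FMOD* (ENSECAG00000017864) was the least abundant of the 8 genes by UMIs, with 811 in control and 470 in TGF-β1 cells. Its 3.85 CPM (3.59 to 4.13) and 2.14 CPM (1.95 to 2.34) gave a log2 ratio of -0.85 (-1.02 to -0.68). The TGF-β1 library was lower by a factor of 1.80, and the interval reaches slightly past 2-fold.

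*LUM* (ENSECAG00000018248) had 551 CPM (548 to 554) without and 564 CPM (561 to 567) with TGF-β1. The log2 ratio was 0.033 (0.021 to 0.044), a 1.02-fold difference that counting error alone does not cover but that is small beside the other members. Lumican thus lay near its control level in this library, where decorin was lower and biglycan higher.

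*OGN* (ENSECAG00000017802), a keratan sulfate proteoglycan of many connective tissues, had 12.9 CPM (12.4 to 13.4) and 14.6 CPM (14.1 to 15.1), a log2 ratio of 0.18 (0.11 to 0.26). *PODN* (ENSECAG00000015840), a collagen-binding protein also known from vascular smooth muscle, had 8.29 CPM (7.91 to 8.69) and 14.3 CPM (13.8 to 14.8). Its log2 ratio of 0.78 (0.70 to 0.87) is a 1.72-fold difference. Both were higher in the TGF-β1 library, *OGN* by little.

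Cells were compared at equal depth after random thinning to 20000 UMIs each, where 1 UMI equals 50 CPM. *DCN*, *LUM* and *BGN* were then found in 99.8% to 100% of the cells of either library, and most cells held 3 to 5 of the 8 genes. In the control library 40.0% of cells held exactly 4 of the genes, and with TGF-β1 44.9%, while all 8 were found in 3 control cells and 1 TGF-β1 cell. No cell type that should lack these genes was identified in the cultures, so the part that free RNA has in the shares of the sparse genes was not measured.

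The share of thinned cells with *ASPN* was 31.3% (exact binomial interval 29.9% to 32.8%) in the control and 66.6% (65.2% to 68.0%) with TGF-β1, against 47.5% and 77.3% without thinning. Thinned cells held a mean of 0.642 and 2.43 UMIs. Among the cells in which it was found, the mean was 2.05 and 3.64 UMIs. Both the share of cells and the mean in those cells were thus higher after TGF-β1. Both also rise with the mean over all cells, so they do not separate more expressing cells from more transcripts per cell. Cells with 5 or more UMIs made up 2.38% of the control and 19.6% of the TGF-β1 library.

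For *PRELP* the share was 42.6% (41.0% to 44.2%) in the control and 12.0% (11.1% to 13.0%) with TGF-β1, against 69.9% and 24.3% without thinning. *PODN* was found in 14.5% and 22.0% of thinned cells (30.5% and 40.7% unthinned), *OGN* in 17.4% and 20.2% (33.0% and 35.3%), and *FMOD* in 6.93% and 3.97% (16.2% and 8.95%). These shares had the same direction as the summed levels. For genes this sparse the share follows largely from the mean, so it does not separate fewer expressing cells from fewer transcripts per cell.

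Among the abundant genes, the distribution over cells lay higher with TGF-β1 for *BGN* and lower for *DCN*. *BGN* had a median of 13 UMIs per thinned cell in the control library, with 5 at the 5th and 23 at the 95th percentile. In the TGF-β1 library the median was 19, with 10 and 33 at the same percentiles, so even the lower end of the cells lay higher. *DCN* had a median of 35 and 31 UMIs, with 57 and 49 at the 75th percentile and 9 and 7 at the 5th. *LUM* had a median of 10 in both libraries, and its 95th percentile was 24 in control and 22 in TGF-β1 cells.

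**Figure D2:**
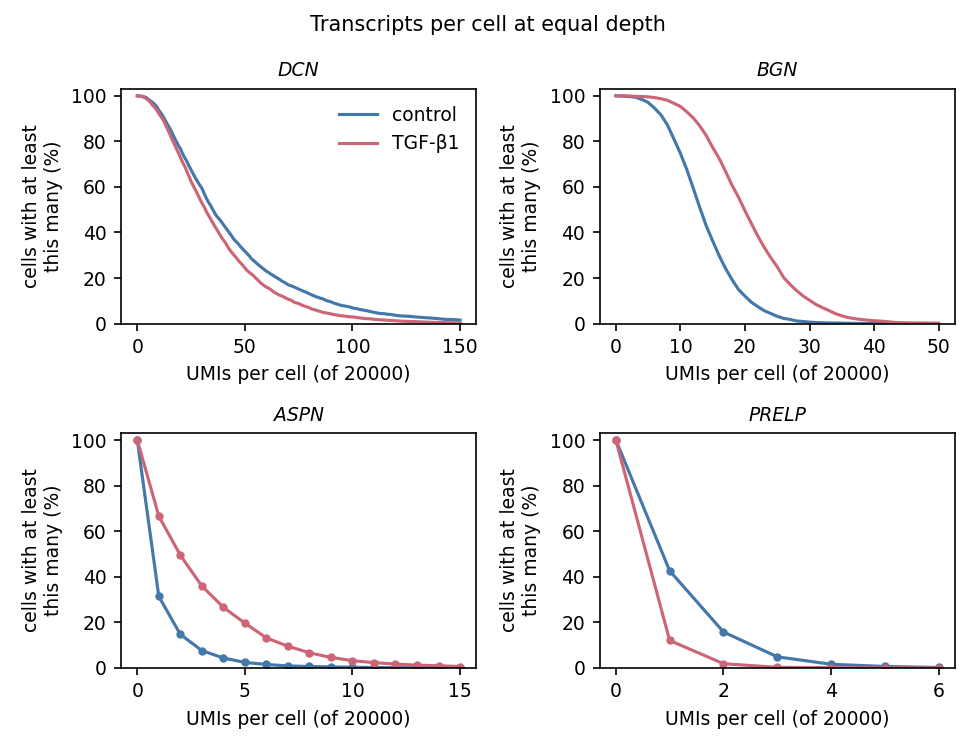
Share of cells (vertical axis, percent) with at least the number of UMIs on the horizontal axis, for *DCN*, *BGN*, *ASPN* and *PRELP* after thinning to 20000 UMIs, in the control (blue) and TGF-β1 (red) library. The *BGN* and *ASPN* curves of the TGF-β1 library lie to the right of control, those of *PRELP* and *DCN* to the left.

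Cells differed from each other in *DCN* more than in *BGN*. The standard deviation of thinned UMIs divided by the mean was 0.771 for *DCN*, 0.650 for *LUM* and 0.408 for *BGN* in control cells. In TGF-β1 cells it was 0.698, 0.516 and 0.362 for the same genes. The variance divided by the mean, given next, grows with the level at an equal relative spread. The variance of UMIs over thinned cells divided by the mean, which is 1 for pure counting error, was 26.1 in control and 18.1 in TGF-β1 cells for *DCN*. That is above 96.0% and 96.5% of the 201 genes with a mean of 500 to 3000 CPM. It was 4.67 and 3.01 for *LUM* (above 74.1% and 61.2% of the same genes) and 2.20 and 2.63 for *BGN* (above 35.3% and 53.7%). Genes were binned by the mean level of both libraries, so a percentile is given only where the member's own level in that library lay inside the bin. *ASPN* had 2.78 in control and 3.55 in TGF-β1 cells, the latter above 97.0% of the 2797 genes of 50 to 500 CPM. *OGN*, at 2.01 and 1.85, lay above 96.3% and 96.8% of the 4603 genes of 10 to 50 CPM. *PRELP* lay above 85.9% of the latter genes in the control library, at 1.36, and had 1.21 in TGF-β1 cells. *PODN* lay above 76.8% of them in the TGF-β1 library. For *FMOD* the values were 1.09 and 1.15, close to counting error.

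The kept cells were clustered again in Seurat without the 8 genes among the variable genes, into 8 rebuilt clusters with 53 to 1051 cells of each library. Cluster 6 was cycling-like, with *CENPF*, *CDC20* and *ASPM* as leading genes and all 9 cycling markers found in the files more than 2-fold above the other cells. The other clusters were left unnamed. Clusters were compared by number, since mares were not assigned to cells here and a cluster may be mostly of 1 mare.

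With TGF-β1, *ASPN* was more than 2-fold higher in each of the 8 clusters, with log2 ratios from 1.57 to 2.31, and *PRELP* more than 2-fold lower in all 8, from -2.53 to -1.87. *BGN* was higher in all 8, within the narrow range of 0.47 to 0.72, and *PODN* in all 8, from 0.53 to 1.61. The 1.61 was that of cluster 7, on 32 control and 48 TGF-β1 UMIs (interval 0.94 to 2.30). With clusters rebuilt at resolutions of 0.3 and 0.8, the highest ratio of *PODN* was 0.93 and 0.91. For *ASPN*, *PRELP*, *BGN* and *PODN* the counting interval lay on the same side of 0 as the ratio in every cluster. The share of all genes for which this holds was not computed. The clusters are parts of the same libraries and not replicates.

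*DCN* was lower in 7 clusters, down to -0.46 in cluster 2, and higher in cluster 7 (0.40, 0.35 to 0.44), the smallest, with 100 control and 53 TGF-β1 cells. That interval covers counting error only and leaves out the spread of *DCN* between these few cells. *CA4*, *KRT1* and *SUSD4* led cluster 7. *OGN* was also opposite there, at 29.5 CPM in control and 15.2 CPM in TGF-β1 cells (-0.96, -1.49 to -0.45), but rested on 158 and 40 UMIs. It was lower in cluster 5 as well (-0.23, -0.67 to 0.21), with an interval that included 0. With coarser or finer clusters, at resolutions of 0.3 and 0.8, *DCN* was lower in all 5 and all 9 clusters, so the exception depends on the resolution. For *OGN* the interval lay below 0 in none of the clusters at either resolution. *LUM* lay between -0.06 and 0.18, and *FMOD* between -1.57 and 0.16, with 2 clusters above 0 whose intervals included 0.

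**Figure D3:**
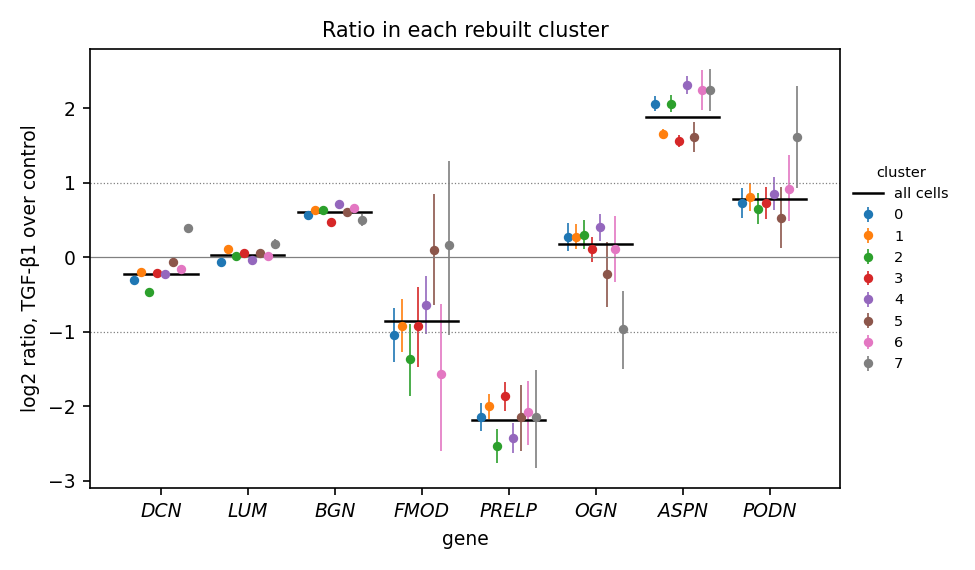
Log2 ratio of TGF-β1 over control for each gene (horizontal axis) in the 8 rebuilt clusters (coloured points, with 95% counting intervals) and over all kept cells (black line). The dotted lines mark 2-fold. All points of *ASPN* lie above and all of *PRELP* below these lines, and *DCN* has 1 point above 0, that of cluster 7.

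Levels also differed between clusters of the same library. In the control library *DCN* ranged from 1378 CPM in cluster 3 to 2761 CPM in cluster 2, and was 1587 CPM in cluster 4 and 1393 CPM in the cycling-like cluster 6. The leading genes of cluster 3 included *KRT7*, *KRT8* and the mitochondrial *MT-CO3*, and their part in the *DCN* level was not tested. *ASPN* ranged 3.69-fold over the control clusters, from 15.1 CPM in cluster 6 to 55.7 CPM in cluster 1, and from 71.4 to 176 CPM in the same clusters of the TGF-β1 library. Its lowest TGF-β1 cluster was therefore above its highest control cluster. *PRELP* ranged from 24.9 to 38.5 CPM in control and from 5.54 to 8.92 CPM in TGF-β1 clusters, also without overlap. *BGN*, from 539 to 876 CPM and from 762 to 1337 CPM, did overlap. The share of all genes with cluster ranges apart was not computed, and clusters of a library are not replicates of a condition.

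Thinned cells in which 3 or more cycling markers were found, 71 control and 68 TGF-β1 cells, had lower levels of several of the genes than the other cells. *DCN* was at a mean of 26.2 against 44.2 UMIs in control cells (log2 -0.76) and 24.2 against 37.3 in TGF-β1 cells (-0.62). *ASPN* was at 0.211 against 0.650 UMIs in control (-1.62, -2.46 to -0.90) and 0.971 against 2.45 in TGF-β1 cells (-1.33, -1.71 to -0.99). *BGN* was at 11.5 against 13.2 UMIs in control cells (-0.20) and showed no detectable difference in TGF-β1 cells (-0.01, -0.09 to 0.07).

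Some of the genes also differed with genes that mark subsets of these cells. In the control library, cells with a *KRT8* UMI, a keratin gene of simple epithelia, had a mean of 33.5 *DCN* UMIs against 47.4 in cells without (log2 -0.50, -0.52 to -0.48), and 9.09 against 11.8 *LUM* UMIs (-0.37, -0.40 to -0.34). *BGN* was at 13.7 against 13.0 UMIs in the same cells (0.07, 0.04 to 0.09). Control cells with a *CFD* UMI, the gene of complement factor D, had more *PRELP*, 0.775 against 0.560 UMIs (0.47, 0.36 to 0.58), slightly more *DCN* (0.04, 0.02 to 0.05) and less *ASPN* (-0.26, -0.38 to -0.14). *ASPN* (-0.30, -0.44 to -0.16) and *PODN* (-0.32, -0.60 to -0.05) were also lower in cells with *KRT8*. In the TGF-β1 library, *ASPN* was at 2.44 UMIs in the 1788 cells with *IGFBP3* and 2.42 in the 2725 cells without (0.01, -0.04 to 0.07), and no difference was detectable at this depth. In the same split *PODN* was higher in cells with *IGFBP3* (0.25, 0.09 to 0.41), *BGN* slightly higher (0.08, 0.06 to 0.09), *DCN* lower (-0.12, -0.13 to -0.10) and *LUM* slightly lower (-0.04, -0.07 to -0.01). Cells of the TGF-β1 library with *AREG*, an EGF receptor ligand, had less *DCN* than those without (-0.14, -0.16 to -0.13) and less *LUM* (-0.08, -0.11 to -0.05), while the intervals of the other 6 genes included 0. The 180 control cells with *VCAM1*, an adhesion molecule, had more *PRELP* (0.41, 0.16 to 0.64) and *BGN* (0.11, 0.06 to 0.17) and less *ASPN* (-0.41, -0.73 to -0.10), *LUM* (-0.10, -0.17 to -0.03) and *DCN* (-0.07, -0.11 to -0.04). The intervals of these splits and of the cycling split cover counting error only and leave out the spread between cells. The variance over the mean in control cells was 26.1 for *DCN*, 4.67 for *LUM* and 2.78 for *ASPN*. Whether any of these differences exceeds the spread between cells was not tested.

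Across cells, 1 pair of the 8 genes stood apart. The correlation of *DCN* with *LUM*, as Pearson's r of the log of 1 plus the thinned UMIs, was 0.34 over 3865 control cells and 0.29 over 4513 TGF-β1 cells. These are descriptions of cells that share a library and a depth, without a p. Among the 21 pairs of the 7 genes found in at least 10% of thinned cells of both libraries, which leaves out *FMOD*, the median r was 0.04 in the control and 0.02 in the TGF-β1 library. The next highest pairs had r of 0.11 in either library, *LUM* with *ASPN* in control and *ASPN* with *PODN* in TGF-β1 cells. For genes with less than 1 UMI per thinned cell, counting error lowers such values, and correlations near 0 were not read.

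**Figure D4:**
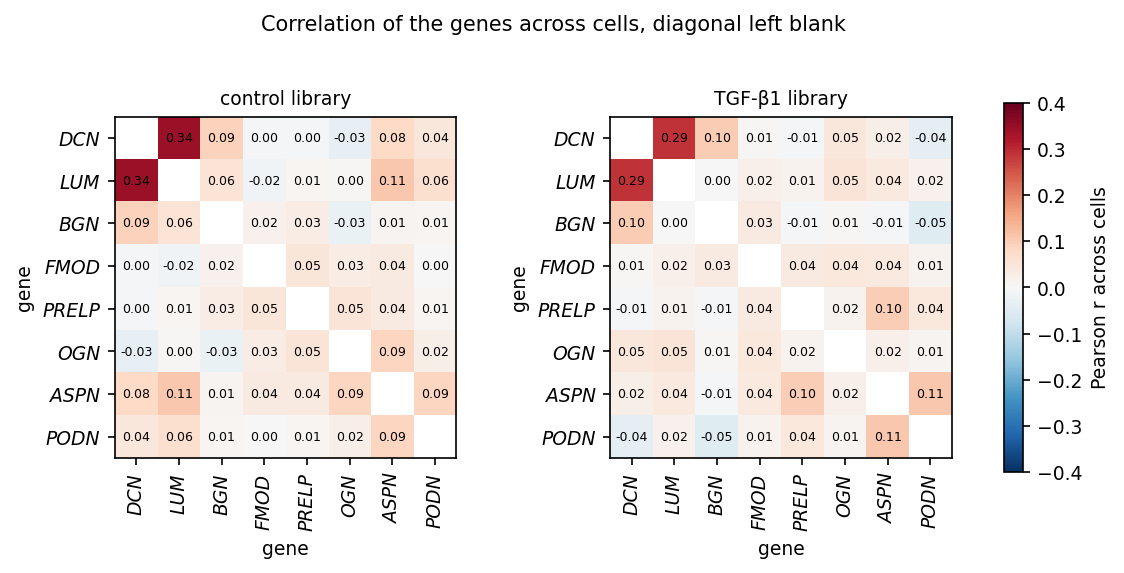
Pearson r across cells (colour and printed value) between each pair of the 8 genes in the control (left) and TGF-β1 (right) library, after thinning to 20000 UMIs per cell. *DCN* with *LUM*, at 0.34 and 0.29, is the only pair above 0.2 in either library.

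The relation of *DCN* with *LUM* was seen inside the clusters too, with r from 0.21 to 0.43 in the 8 control clusters and from 0.23 to 0.39 in the 8 TGF-β1 clusters. When control cells were ranked by *DCN* and cut into deciles, mean *LUM* went from 7.22 UMIs in the lowest decile (SD 4.27, 418 cells) to 15.8 UMIs in the highest (SD 9.29, 388 cells). In TGF-β1 cells it went from 8.45 (SD 4.28) to 14.3 UMIs (SD 7.45). *BGN* moved little along the same ranking, from 12.5 to 13.9 UMIs in control and from 18.6 to 21.4 UMIs in TGF-β1 cells. At every decile, *BGN* was higher in the TGF-β1 library, while the *LUM* curves of both libraries ran close together.

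**Figure D5:**
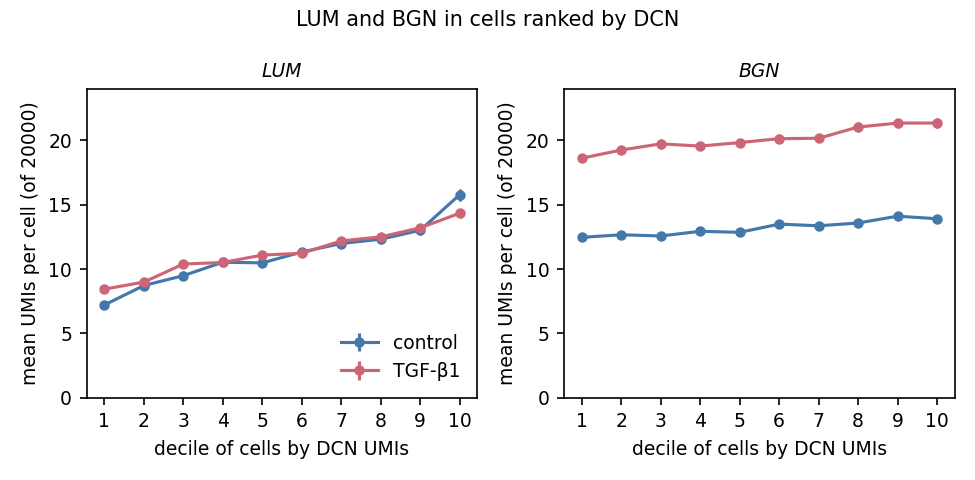
Mean UMIs per thinned cell of *LUM* (left) and *BGN* (right) in deciles of cells ranked by *DCN* UMIs, in the control (blue) and TGF-β1 (red) library, with standard errors over cells mostly smaller than the points. *LUM* climbs with *DCN* in both libraries, and *BGN* is nearly level but higher in the TGF-β1 library.

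*DCN* and *LUM* are direct neighbours in the genome. In the RefSeq gene table of the horse assembly TB-T2T, which is not the EquCab3.0 build of the counts and was used for gene order only, *LUM* lies between *KERA* and *DCN*, and *EPYC* lies beyond *KERA*. *FMOD*, *PRELP* and *OPTC* follow each other as well, and *ECM2*, *ASPN*, *OMD* and *OGN* form another run. *BGN* and *PODN* have no family member within 5 protein-coding genes. Neighbours did not always have like ratios. *DCN* and *LUM* were at -0.23 and 0.03, *FMOD* and *PRELP* both lower at -0.85 and -2.18, and *ASPN* and *OGN* at 1.89 and 0.18. *ECM2*, beside *ASPN*, had 13.5 and 27.7 CPM, a log2 ratio of 1.03 (0.97 to 1.10).

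For each of the 7 genes, the genes most alike across cells were taken from the 7658 genes whose mean reached 10 CPM, by the lower of the r values in the 2 libraries. Among genes with a symbol, *DCN* was most alike to *LUM* (0.29), *SFRP1* (0.29), a secreted WNT antagonist, *COL3A1* (0.28), a fibrillar collagen chain, *IL11* (0.24), a cytokine gene, and *NBL1* (0.24), a BMP antagonist. A gene without a symbol, ENSECAG00000020411, named after its value was seen, ranked above them at 0.32. *LUM* was most alike to *DCN*, then *MMP2* (0.21), *CD63*, *NPC2* and *SPARC*. *BGN* was most alike to *MFAP2* (0.19), a microfibril protein, *SSR4*, *LGALS1*, *FBLN1* and *SPARC*.

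*ASPN* was most alike to *NEXN* (0.21), *MYH10* (0.19), *MYLK* (0.18) and *CNN1* (0.18), which bind actin or drive and regulate myosin, and to *COL12A1* (0.17). *PODN* was most alike to *MYL9* (0.16), *CNN1* (0.15), *TPM2*, *TAGLN* and *TPM1*. These r values are small, and 99% of the 7657 other genes lay below 0.08 for *ASPN* and 0.05 for *PODN*. *PRELP* was most alike to *CFD* (0.11), followed by *DPT* (0.08), *STRA6*, *SLIT3* and *ECM1*. For *OGN* the highest value was 0.06, with *MYLK*, too low to be read.

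Other genes of the family were few. Of 10 further members and relatives, *KERA*, *EPYC*, *OPTC*, *CHAD*, *CHADL* and *NYX* had a mean under 1 CPM. *TSKU* had 13.4 CPM in control and 10.7 CPM in TGF-β1 cells, *PODNL1* 10.4 and 15.6 CPM, and *OMD* 3.29 and 3.63 CPM, with *ECM2* the 1 gene past 2-fold. The members not past 2-fold were named after their values were seen. For comparison, 6.91% of all genes passed 2-fold, which is the share to set beside the counts of this list and of those below.

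Of 28 enzymes that build the glycosaminoglycan chains, 2 were not found by their symbols and 24 reached a mean of 1 CPM. Of these 24, 16 were higher and 8 lower after TGF-β1, and the median log2 ratio was 0.26. The 1 past 2-fold was *CHST7* (1.14 and 3.69 CPM), a sulfotransferase that, like *XYLT1* (26.8 and 48.2 CPM, log2 0.85), which starts the chains, and *CHSY1* (19.7 and 36.1 CPM, 0.87), which extends them, was picked after its value was seen.

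A list of 12 genes held matrix proteases, of which several can cleave these proteoglycans, and *PCOLCE*, an enhancer of *BMP1*. Of these, 1 was not found by its symbol and 9 had at least 1 CPM, with 7 higher, 2 lower and 3 past 2-fold. *TLL1*, a relative of the enzyme *BMP1* that trims procollagens and probiglycan, had 4.98 CPM in control and 43.8 CPM in TGF-β1 cells (log2 3.14, 3.04 to 3.23). *MMP9* (4.07 and 11.7 CPM) and *ADAMTS4* (2.05 and 4.23 CPM), the others past 2-fold, were below the 10 CPM set for named genes and were named after their values were seen.

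Among 11 collagen chains that these proteins bind or accompany, 10 had at least 1 CPM, with a median log2 ratio of 0.23 and 8 higher. *COL12A1* was past 2-fold higher (374 and 1067 CPM, 1.51) and *COL14A1* past 2-fold lower (35.6 and 15.3 CPM, -1.22). Both are chains of fibril-associated collagens, and decorin is known to bind to type XIV collagen.

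Of 15 growth factors and receptors known to bind members of the family, 1 was not found by its symbol and 10 had at least 1 CPM, with a median of -0.07. *TGFB3* (4.97 and 10.5 CPM) and *CCN4* (3.45 and 8.15 CPM) were past 2-fold higher, and both were named after their values were seen. *TGFB1* itself had 21.2 and 20.1 CPM. In a list of 14 genes, other matrix proteoglycans and the glycoprotein gene *TNC*, 1 was not found by its symbol and 8 had at least 1 CPM with a median of 0.90. Those past 2-fold were *TNC* (132 and 389 CPM, 1.56), *ESM1* (2.67 and 8.97 CPM) and *SPOCK3* (5.31 and 12.6 CPM). *VCAN*, the large proteoglycan versican, had 643 and 1188 CPM (0.89), and *ESM1*, *SPOCK3* and *VCAN* were named after their values were seen. The summed level of this list was 932 CPM in control and 1756 CPM in TGF-β1 cells, beside 3395 and 3523 CPM for the 8 small proteoglycans.

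The fibroblast label was checked on fixed markers. All 6 fibroblast markers had at least 1 CPM in both libraries, although 4 were lower after TGF-β1 and the median log2 ratio of the list was -0.84. These were *PDGFRA* (50.5 and 16.7 CPM), *THY1* (215.5 and 87.5 CPM), *VIM* (4399 and 2240 CPM) and *PDGFRB* (80.1 and 49.0 CPM). *EPCAM* had 1 and 3 UMIs, *CDH1* 6 and 4, *PECAM1* 9 and 8, and *PTPRC* 1 and 0 in all kept cells, so defining markers of epithelial, endothelial and immune cells were at or near 0. The epithelial list, of which 1 gene was not found by its symbol, summed to 134 CPM in control and 12.3 CPM in TGF-β1 cells. Nearly all of it was *KRT8* and *KRT7*, and its part in the results was not tested. The endothelial list summed to 1.08 and 1.22 CPM and the immune list, nearly all *CD68* and *CD14*, to 56.6 and 52.9 CPM. Of 5 pericyte and smooth muscle markers, 4 reached 1 CPM, and the list summed to 747 CPM in control and 658 CPM in TGF-β1 cells, most of it *DES* (646 and 569 CPM), with *RGS5* at 51.7 and 61.1 CPM, *MYH11* at 42.9 and 25.3 CPM, *MCAM*, the 1 past 2-fold, at 5.78 and 1.75 CPM, and *NOTCH3* at 42 and 31 UMIs. Cells of that kind were thus not shown to be absent by these markers, and their part in the results was not tested. The libraries shared 6 of their deposited barcodes.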

How the data were processed

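For each library, the authors deposited unnormalized UMI counts of genes in cell barcodes. Reads had been aligned to EquCab3.0, with Ensembl gene models, in Cell Ranger, whose version is 7.1.0 in the processing notes and 8.0.1 in the header of the counts. The filters of the methods had not been applied to them, and were applied here. Doublets, which the study removed by genotype, were not removed. Counts were summed per library and scaled to CPM, and symbols on more than 1 row were summed. No ratio was given to a gene with 3 UMIs or fewer in each library or, within clusters, in any library. Depth was 210497250 control and 219731144 TGF-β1 UMIs in kept cells. Clusters were made in Seurat 5.3.0 (R 4.3.3) with 2000 variable genes, less the 4 members among them, 30 dimensions, canonical correlation integration and a resolution of 0.5. Other steps used Python 3.11.15, numpy 2.4.6, scipy 1.17.1, pandas 2.3.3 and matplotlib 3.10.9. The ratio and correlation steps were tested on simulated data.

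Members and lists were chosen with earlier results of these data known. Named are the 8 members, for each member in at least 10% of thinned cells the 5 genes most alike, and up to 4 genes per list past 2-fold whose mean reached 10 CPM. Marker genes, leading genes of clusters and genomic neighbours are also named, and any other gene was named after its value was seen. The study tested treatments and clusters in edgeR 4.2.2, which was not repeated here. The alternatives changed the cells kept, the scaling, the limits, the thinning, the correlation measure and the clustering, and those for *DCN* with *LUM* were added after seeing the data.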

Additional observations from a re-analysis of the deposited data

How the results depend on the processing

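No paired analysis was possible because cells were not assigned here to the 4 mares that both pools share. With 1 library per condition, no replicate could be left out. Under the 10 alternatives of cells, scaling and thinning, every member kept the direction of its log2 ratio. *ASPN* ranged from 1.86 to 1.92, *PRELP* from -2.23 to -2.16, *BGN* from 0.61 to 0.64, *PODN* from 0.70 to 0.81, *FMOD* from -0.88 to -0.78, *OGN* from 0.18 to 0.25, *DCN* from -0.26 to -0.20 and *LUM* from 0.02 to 0.06. The log2 ratio of the summed level, 0.053, moved past its counting interval with the cells of highest UMI counts removed (0.044), size factors by median of ratios (0.076), CPM averaged over cells (0.035), equal cluster shares (0.027), cycling cells removed (0.049) and thinned cells (0.035). The number of members past the limit, 2, was 5 at a limit of 1.5-fold. With a minimum of 10 CPM, which leaves out *FMOD*, the median log2 ratio was 0.18. The correlation of *DCN* with *LUM* was 0.39 in control and 0.36 in TGF-β1 cells at full depth with log normalization. The difference between the highest and the lowest cluster ratio, a median of 0.80 over the members, was 0.29 with 5 clusters at a resolution of 0.3 and 0.61 with 9 clusters at 0.8. The cause of these moves was not tested. Depth limits the counts of *FMOD*, *OGN*, *PODN* and *PRELP* in single cells and small clusters, and the spread between mares and between cultures was not measured.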
